A study of Mus musculus with 6 samples.

Results

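The connexin genes Gja1, Gja4, Gja5, Gjc1, Gjb2 and Gjb5 were followed in primary oviductal muscle cells of mice with and without conditional deletion of Pbrm1, whose product belongs to the PBAF form of the SWI/SNF chromatin remodelers. These 6 genes were chosen by name, through their Ensembl identifiers, from 54232 genes in the deposited table, and all 6 were found. RNA-Seq was performed on 3 WT libraries and 3 Pbrm1 cKO libraries (cKO below), all from day 2 of pregnancy. The cKO females carried floxed Pbrm1 alleles and 1 copy of cre knocked in at the progesterone receptor gene, so that deletion takes place in progesterone receptor-expressing cells of the whole reproductive tract and not in muscle alone. Per the study, females were 8 to 12 weeks old; their oviducts were digested with trypsin, collagenase and dispase, and the cells were filtered and plated in serum before total RNA was taken. The labels call the controls WT, although a legend in the study's supplement names floxed mice, and they leave it unsaid if 1 animal or a pool gave each library. The p-values therefore measure the spread between these libraries, which may be partly technical.

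Gap junctions are intercellular channels. Each cell contributes a ring of connexin proteins, and paired rings let ions and small metabolites pass from cytoplasm to cytoplasm. In smooth muscle this coupling carries depolarization and calcium signals from cell to cell, and in the female tract Gja1 (connexin 43) is the connexin best known for coupling muscle cells. Gjc1 (connexin 45) forms low-conductance channels in muscle and pacemaker cells, Gja4 (connexin 37) and Gja5 (connexin 40) are known chiefly from the vessel wall, and the beta connexins Gjb2 (connexin 26) and Gjb5 belong mainly to epithelia.

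The libraries held between 15390818 and 18947947 counts. A count of 3 in a library, taken as the floor, was worth 0.158 to 0.195 CPM, the unit in which counts are scaled so that libraries of unequal depth can be compared. Pbrm1 itself averaged 175 ± 7.09 CPM in WT against 45.6 ± 4.39 CPM in cKO (SD, n = 3 each), counted over the whole gene and so including exons outside the deleted part, with a log2 fold change of -1.94 and an edgeR adjusted p of 9.13e-11. Pgr, whose locus carries the cre, averaged 174 ± 3.20 CPM in WT against 168 ± 13.8 CPM in cKO (log2 fold change -0.05 ± 0.06 SE, edgeR adjusted p = 0.508), although without cKO replicate 2 it was called lower (log2 fold change -0.12, edgeR adjusted p = 0.036). Smooth muscle markers were abundant, with Acta2 (smooth muscle actin) at 1287 ± 33.5 CPM in WT against 1536 ± 131 CPM in cKO (SD, n = 3 each). Markers of other cell types were present in every library. The summed level of 12 epithelial markers was 1138 to 1231 CPM in WT against 1382 to 1541 CPM in cKO. For 10 leukocyte markers it was 705 to 754 CPM in WT and 1030 to 1114 CPM in cKO. For 10 endothelial markers it was 373 to 396 and 317 to 329 CPM, and 7 of them were not called. Kdr, a large part of the endothelial sum, averaged 182 ± 6.61 CPM in WT against 99.4 ± 11.3 CPM in cKO (SD, n = 3 each). No marker on the cell type lists had 0 counts in all libraries.

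The promoters of the 3 members with the lowest edgeR adjusted p, Gja1, Gjb2 and Gjb5, are printed because their transcripts all fell in cKO. They were read from RefSeq (GRCm38.p6) as the 250 bases before the annotated start, written along the gene's strand. Capitals mark matches to the AP-1 letters TGANTCA or the GC box GGGCGG, searched on both strands. The Gja1 window is chr10:56377050-56377299 on the + strand, the Gjb2 window chr14:57104703-57104952 on the - strand, and the Gjb5 window, shortened by 17 bases that lie in an annotated exon, chr4:127358182-127358414 on the - strand.
Gja1: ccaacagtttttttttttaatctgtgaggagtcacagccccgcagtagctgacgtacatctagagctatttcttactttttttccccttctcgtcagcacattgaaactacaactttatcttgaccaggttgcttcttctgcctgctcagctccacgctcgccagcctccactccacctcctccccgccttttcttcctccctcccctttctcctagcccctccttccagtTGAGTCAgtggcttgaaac
Gjb2: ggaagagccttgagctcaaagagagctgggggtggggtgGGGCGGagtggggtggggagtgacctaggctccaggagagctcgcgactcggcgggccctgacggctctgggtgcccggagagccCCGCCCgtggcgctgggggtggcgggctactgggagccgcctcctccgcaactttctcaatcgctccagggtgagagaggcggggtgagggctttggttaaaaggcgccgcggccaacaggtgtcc
Gjb5: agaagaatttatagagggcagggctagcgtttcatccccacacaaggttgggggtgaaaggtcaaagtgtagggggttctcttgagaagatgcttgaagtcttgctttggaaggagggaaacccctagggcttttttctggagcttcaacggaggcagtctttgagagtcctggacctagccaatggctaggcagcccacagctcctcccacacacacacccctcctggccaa

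The Gja1 window held 1 AP-1 match, 12 bases from its end, and no GC box. Of 32851 RefSeq promoter windows of 250 bases, 6.75% held the AP-1 letters and 32.7% held a GC box. The Gjb2 window had a GC content of 69.2% and 2 GC boxes, whereas the Gjb5 window had 53.2% and matched neither motif. The median GC content over all windows was 52.4%. The Gja4 and Gja5 windows, not printed, each held 1 GC box and no AP-1 match. A match is a description of the letters and not a shown binding site, and the table held no window for Gjc1.

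Of the 6 members, 5 passed the test between cKO and WT, 4 of them lower and 1 higher in cKO. Gja1, Gja4, Gjb2 and Gjb5 fell, Gja5 rose from a low level, and Gjc1 did not pass. The comparison asked how loss of Pbrm1 altered gap junction transcripts. Counts were tested with edgeR's quasi-likelihood test and Benjamini-Hochberg adjustment over 15376 genes, with an adjusted p of 0.05 as the threshold. Changes were common across the transcriptome, since 43.7% of all genes tested were called in either direction and 21.8% were called lower. Counts of called genes on each list below are to be read against these shares. In the same 5 members the CPM ranges of WT and cKO did not overlap, against 53.5% of all genes tested. The median log2 fold change was -0.33 over the 6 members and 0.00156 over all genes tested. Above 1 CPM in all 6 libraries were 5 members, and Gja5 was above it in every library except WT replicate 1.

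**Figure D1:**
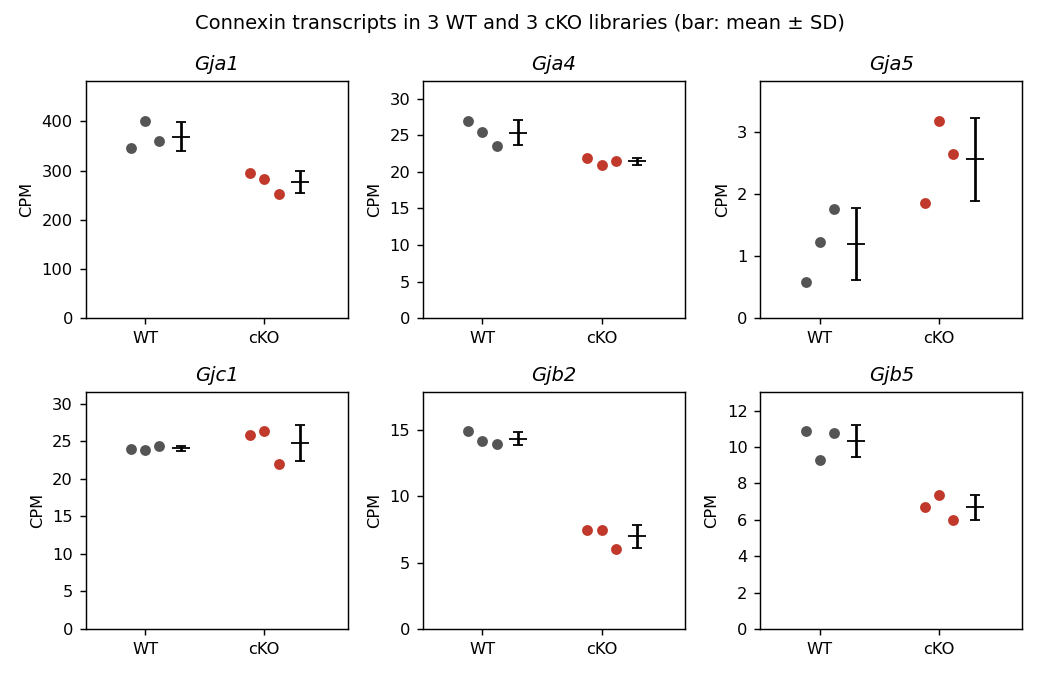
CPM of each member (y axes, each from 0) in the 3 WT and 3 cKO libraries (points), with the mean and SD of each group beside them. The groups are apart for every member except Gjc1, and Gja5 is near 1 CPM in WT.

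Gja1 (chr10:56377330-56402513, + strand), the principal muscle connexin, had 346, 402 and 359 CPM in WT replicates 1 to 3 and 295, 282 and 252 CPM in cKO replicates 1 to 3. No cKO library reached the lowest WT library, with WT replicate 2 the highest. The group means were 369 ± 28.8 CPM in WT against 276 ± 22.4 CPM in cKO (SD, n = 3 each), so cKO stood at 74.9% of WT. The log2 fold change came to -0.42 ± 0.06 (SE), with an edgeR adjusted p of 0.00016. A change of this size was not unusual, as 25.9% of all genes tested had a larger absolute log2 fold change. Gja1 is nevertheless an abundant transcript, and 2.6% of tested genes had a higher mean CPM. In bulk RNA, fewer cells of a type and less RNA per cell cannot be told apart, which holds for each fall and rise given here. Smooth muscle markers did not fall with Gja1, as 5 of 9 were higher in cKO and 1 was lower, and their summed level was 3492 to 3565 CPM in WT against 4270 to 4765 CPM in cKO. The intermediate filament gene Des and the smooth muscle myosin Myh11 were among those that rose (log2 fold changes 1.21 and 0.74, edgeR adjusted p = 3.54e-09 and 5.18e-07), whereas Smtn fell by 0.29 on the log2 scale (edgeR adjusted p = 0.00169). Gja1 is also a connexin of fibroblasts, and of 9 fibroblast markers 6 were higher and 1 lower, with summed levels of 5049 to 5772 CPM in WT against 6995 to 7492 CPM in cKO. The part of these marker differences in the Gja1 result was not tested.

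Gjc1 (chr11:102799579-102819700, - strand), the low-conductance connexin of muscle, had 23.9, 23.8 and 24.4 CPM in WT against 25.9, 26.3 and 21.9 CPM in cKO. The cKO libraries fell on both sides of the narrow WT range, with cKO replicate 3 below it. The log2 fold change came to 0.04 ± 0.08 (SE, edgeR adjusted p = 0.693), and over 14 other settings it ranged from 0.001 to 0.118 without passing the test. The ratio of Gja1 to Gjc1, each in TPM (counts scaled by exon length and to a common total), was 7.06, 8.23 and 7.18 in WT and 5.57, 5.22 and 5.60 in cKO. Every cKO ratio was below every WT ratio (exact permutation test, two-sided, p = 0.1, the smallest that 3 against 3 allows). Of the 4 pacemaker cell markers, Kit and Etv1 were called higher in cKO (log2 fold changes 0.44 and 0.64, edgeR adjusted p = 0.0297 and 0.0308). DESeq2 called neither, and no marker of this list remained called when WT replicate 2, WT replicate 3 or cKO replicate 1 was left out.

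Gja4 (chr4:127311421-127314039, - strand), a connexin of endothelium and vessel-wall muscle, had 27.0, 25.4 and 23.6 CPM in WT against 21.9, 20.95 and 21.4 CPM in cKO. The cKO values were tightly grouped and lay below the lowest WT library. The means were 25.3 ± 1.71 CPM in WT against 21.4 ± 0.488 CPM in cKO (SD, n = 3 each), a log2 fold change of -0.24 ± 0.07 (SE, edgeR adjusted p = 0.0161). The call rested on WT replicate 1, without which the log2 fold change was -0.197 and the edgeR adjusted p 0.076.

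Gja5 (chr3:96904693-97077416, + strand), an arterial endothelial and conduction connexin, was the only member higher in cKO and the least expressed. It had 10, 23 and 30 counts in WT against 33, 60 and 41 counts in cKO, or 0.591, 1.23 and 1.76 CPM and 1.86, 3.18 and 2.64 CPM. The highest WT library and the lowest cKO library were close, at 1.76 and 1.86 CPM. The log2 fold change came to 1.10 ± 0.32 (SE, edgeR adjusted p = 0.0122). Without WT replicate 1 it was 0.785 with an edgeR adjusted p of 0.0502. Reads of Gja5 are also less certain than those of the other members. Of its 50-base words, 15.3% were shared with transcripts of other genes, mostly Zfp697 and in part Gpr89, which lies on the opposite strand and overlaps 165 exon bases of Gja5 in GENCODE M21. Among the other members at most 0.115% of such words were shared. Words were matched on both strands, whereas reads were counted by strand, so the words shared with Gpr89 need not make Gja5 counts less certain. Zfp697 did not move with Gja5, at 29.6 ± 0.703 CPM in WT against 29.6 ± 1.42 CPM in cKO (SD, n = 3 each), and Gpr89 was lower in cKO (log2 fold change -0.32, edgeR adjusted p = 0.000647).

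Endothelial and mural genes moved in both directions beside Gja4 and Gja5. Of 10 endothelial markers, Vwf and Egfl7 were higher (log2 fold changes 1.71 and 0.45, edgeR adjusted p = 6.12e-06 and 0.00525), the VEGF receptor Kdr was lower (-0.87, edgeR adjusted p = 3.65e-07), and 7 did not pass. Pecam1, which marks endothelium broadly, had 60.1 ± 0.958 CPM in WT against 65.9 ± 2.86 CPM in cKO, and Cdh5 32.9 ± 4.10 and 32.3 ± 3.63 CPM (SD, n = 3 each). Of 7 arterial endothelial markers, the Notch ligand Dll4 was higher (1.39, edgeR adjusted p = 4.28e-06) and the ephrin Efnb2 lower (-0.82, edgeR adjusted p = 4.67e-07). The other 5 did not pass. The summed level of the 7 was 155 to 175 CPM in WT against 105 to 118 CPM in cKO. Efnb2 made up most of that sum, at 137 ± 10.9 CPM in WT against 77.2 ± 5.97 CPM in cKO (SD, n = 3 each). Of 8 mural cell markers 7 were tested, and 6 were higher, led by the potassium channel subunits Kcnj8 and Abcc9 (log2 fold changes 1.47 and 1.38, edgeR adjusted p = 5.06e-06 and 2.58e-06). The pericyte proteoglycan gene Cspg4 was lower (-0.70, edgeR adjusted p = 0.000962). The summed level of the 8 was 464 to 500 CPM in WT against 568 to 659 CPM in cKO. Pdgfrb made up most of it, at 350 ± 14.3 CPM in WT against 469 ± 44.8 CPM in cKO (SD, n = 3 each). The part of these differences in the Gja4 and Gja5 results was not tested.

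Gjb2 (chr14:57098600-57104702, - strand), the connexin of many glandular epithelia, showed the lowest fold change among the members. It had 14.9, 14.2 and 13.9 CPM in WT against 7.48, 7.48 and 5.98 CPM in cKO. The highest cKO library was far below the lowest WT library. The means were 14.3 ± 0.499 CPM and 6.98 ± 0.864 CPM (SD, n = 3 each), leaving 48.7% of the WT level. The log2 fold change came to -1.03 ± 0.11 (SE, edgeR adjusted p = 4.70e-06), and it passed the test under all 14 other settings. Across all genes tested, 2.87% were called with a fall of over 2-fold, and Gjb2 was the only member among them. Gjb2 lies on chromosome 14, as Pbrm1 does, 26.0 Mb from it.

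Gjb5 (chr4:127354809-127358181, - strand), a connexin of stratified epithelium and placenta, had 10.9, 9.30 and 10.8 CPM in WT against 6.69, 7.37 and 5.98 CPM in cKO. No cKO library reached the lowest WT library. The means were 10.3 ± 0.879 and 6.68 ± 0.695 CPM (SD, n = 3 each), with a log2 fold change of -0.62 ± 0.12 (SE, edgeR adjusted p = 0.000767), and all 14 other settings kept the call.

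**Figure D2:**
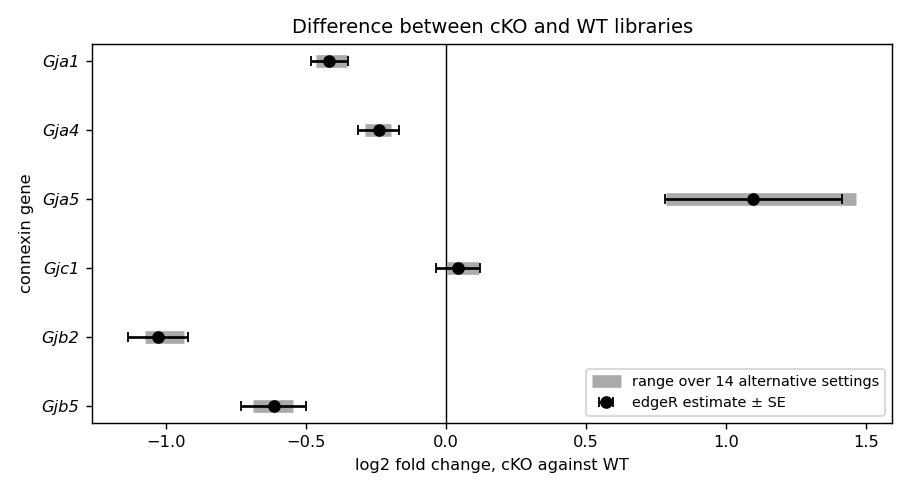
Log2 fold change, cKO against WT (x axis), for the 6 members. Points with bars are the edgeR estimate and its SE, and grey bars span 14 other settings. Gja1, Gja4, Gjb2 and Gjb5 lie below 0 throughout, Gja5 lies above 0 with the widest span, and Gjc1 stays near 0.

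Gja4 and Gjb5 lie on the same strand of chromosome 4, 40770 bases apart, and both were lower in cKO, by 0.24 and 0.62 on the log2 scale. Near Gja1 only the pseudogene Gm9118 exceeded 1 CPM, at 1.94 ± 0.262 CPM in WT against 1.37 ± 0.135 CPM in cKO (SD, n = 3 each), and it did not pass (edgeR adjusted p = 0.0858). Around Gjc1, the splicing factor gene Eftud2 and the mitotic kinesin gene Kif18b were lower (log2 fold changes -0.26 and -0.66, edgeR adjusted p = 0.00281 and 2.26e-05), and Ccdc103 did not pass (edgeR adjusted p = 0.48). Near Gja5, Acp6 had a log2 fold change of 0.25 (edgeR adjusted p = 0.0552). No gene within 100 kb of Gjb2 reached 1 CPM.

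Scaled by exon length, Gja1 was the highest of the 6 members in both groups, at 114 ± 9.04 TPM in WT against 83.9 ± 7.25 TPM in cKO (SD, n = 3 each). In WT it was followed by Gja4 at 47.6 ± 3.15 TPM, and the ranges of the pair were apart. Gjb5 and Gjb2 came next at 19.0 ± 1.6 and 18.9 ± 0.627 TPM and were not separable by their ranges. Gjc1 followed at 15.2 ± 0.214 TPM, below both, and Gja5 was last at 0.657 ± 0.322 TPM. In cKO the order was Gja1, Gja4, Gjc1, Gjb5, Gjb2 and Gja5, and no neighbours in it overlapped. There, Gja4 stood at 39.6 ± 1.10 TPM, Gjc1 at 15.4 ± 1.55 TPM, Gjb5 at 12.1 ± 1.27 TPM, Gjb2 at 9.04 ± 1.15 TPM and Gja5 at 1.39 ± 0.356 TPM. Exon length is that of all annotated isoforms together, so genes whose long isoforms are not used are set too low.

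**Figure D3:**
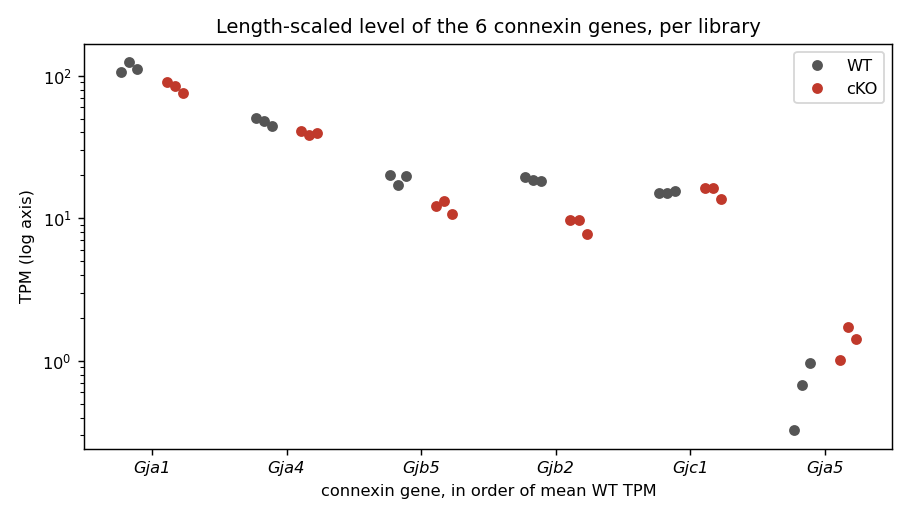
TPM (y axis, log scale) of the 6 members in each library, in the order of their mean in WT (x axis). Gja1 is highest in both groups at 76.0 to 124 TPM, and Gjb2 and Gjb5 lie above Gjc1 in WT and below it in cKO.

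The 6 members together summed to 212, 224 and 210.03 TPM in WT against 170.3, 165 and 149 TPM in cKO, with the highest cKO total under the lowest WT total (74.98% of the WT mean; exact permutation test, two-sided, p = 0.1, the smallest possible). Gja1 held 50.3, 55.5 and 52.9% of this total in WT and 53.0, 51.7 and 51.1% in cKO, so the groups overlapped (exact permutation p = 0.7). Gjb2 and Gjb5 together held 18.6, 16.0 and 18.2% in WT and 12.9, 13.9 and 12.4% in cKO, without overlap (exact permutation p = 0.1). The Gjc1 share was higher in every cKO library, at 9.52 ± 0.388% against 7.08 ± 0.312%, and so was the Gja5 share, at 0.864 ± 0.237% against 0.306 ± 0.154% (SD, n = 3 each; exact permutation p = 0.1 for both). The Gja4 share overlapped between the groups, at 24.6 ± 1.62% against 22.1 ± 1.49% (exact permutation p = 0.2). These shares moved within a total that was itself lower in cKO. Taken over every connexin gene in the table instead, the mean Gja1 share was 39.8 ± 2.75% in WT and 43.5 ± 1.47% in cKO, a difference of 3.76 percentage points in place of -0.943 over the 6 members (exact permutation p = 0.2 and 0.7).

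**Figure D4:**
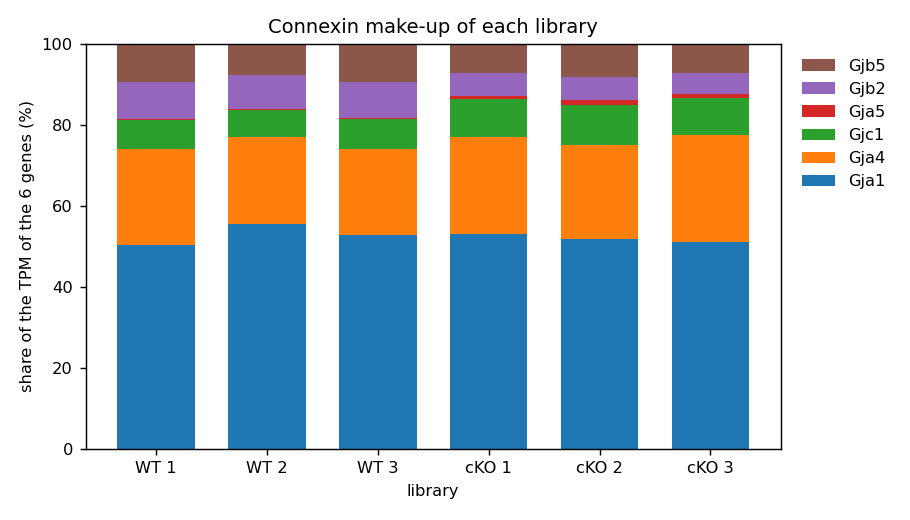
Share of the summed TPM of the 6 members (y axis, %) held by each of them in each of the 6 libraries (stacked bars). The Gja1 segment is 50.3 to 55.5% in WT and 51.1 to 53.0% in cKO, while the Gjb2 segment is 8.35 to 9.21% in WT and 5.17 to 5.85% in cKO.

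The falls of the beta connexins Gjb2 and Gjb5 did not go with a general fall of epithelial transcripts. Of 12 epithelial markers, 8 were called higher in cKO and none was called lower. Among the 8 were the adhesion molecule Epcam (log2 fold change 1.07, edgeR adjusted p = 9.23e-07), the keratin Krt19 (0.79, edgeR adjusted p = 1.83e-07), the claudin Cldn4 (0.64, edgeR adjusted p = 4.32e-07) and the cadherin Cdh1 (0.54, edgeR adjusted p = 0.000113). The other 4 did not pass, with log2 fold changes of -0.27 for Foxj1, -0.12 for Pax8, -0.12 for Krt7 and 0.29 for Cldn3. Without WT replicate 1, 5 of the 12 were called. Of 7 mesothelial markers, 4 were lower, namely Bnc1 (-0.90, edgeR adjusted p = 4.72e-08), Upk1b (-0.86, edgeR adjusted p = 1.21e-06), Msln (-0.82, edgeR adjusted p = 1.28e-07) and Lrrn4 (-0.37, edgeR adjusted p = 0.00181), 1 was higher (Krt19, also on the epithelial list), and 2 did not pass. The summed level of these 7 was 378 to 389 CPM in WT against 379 to 409 CPM in cKO. Without Krt19 the other 6 summed to 251 to 262 CPM in WT libraries and to 180.1 to 181 CPM in cKO ones. All 8 leukocyte markers that could be tested, of 10, were higher in cKO. The part of these marker differences in the Gjb2 and Gjb5 results was not tested.

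Partners of connexins in the cell were followed through lists of known genes. Of 12 scaffold and trafficking genes, 6 were called, 4 higher and 2 lower (median log2 fold change 0.00266). Of all genes tested, 43.7% were called. Cav1, which encodes the caveolar protein that binds connexin 43, averaged 236 ± 8.62 CPM in WT against 167 ± 6.96 CPM in cKO (SD, n = 3 each; log2 fold change -0.50, edgeR adjusted p = 2.26e-06). Ccn3, whose product binds the connexin 43 tail, was at 0.708 ± 0.213 and 2.41 ± 0.34 CPM (log2 fold change 1.77, edgeR adjusted p = 0.000126). The actin-binding drebrin gene Dbn1 and the connexin 43-associated Tmem65 were also higher (0.25 and 0.22, edgeR adjusted p = 0.00191 and 0.00198), as was the tight junction scaffold Tjp3 (0.55, edgeR adjusted p = 0.0112; DESeq2 adjusted p = 0.0584, not called). Ubqln4 had a log2 fold change of -0.18 (edgeR adjusted p = 0.0131) and was not called without WT replicate 1 (adjusted p = 0.0505) or without cKO replicate 1 (adjusted p = 0.0705). Tjp1, the main connexin 43 scaffold, did not pass, at 119 ± 5.58 CPM in WT against 120 ± 6.20 CPM in cKO.

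Of 12 genes for kinases that act on connexin 43, 5 were lower and 1 was higher (median log2 fold change -0.0993). Across all genes tested, 43.7% were called in either direction and 21.8% were called lower. Prkca and Prkacb, catalytic kinases of the C and A families, were among the lower genes (-0.29 and -0.23, edgeR adjusted p = 0.000489 and 0.00113), and Prkcd was higher (0.18, edgeR adjusted p = 0.00866). Src and Csnk1d were called lower (-0.17 and -0.12, edgeR adjusted p = 0.0139 and 0.0428). Src was not called without WT replicate 1 or cKO replicate 1 (adjusted p = 0.0735 and 0.0538), and Csnk1d was not called by DESeq2 (adjusted p = 0.0804) or when any WT replicate or cKO replicate 3 was left out (adjusted p = 0.0649 to 0.162).

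Of 17 genes for regulators of Gja1 transcription, 6 were higher and 1 was lower (median log2 fold change -0.0385), and without cKO replicate 2 the number called was 13. Over all genes tested, 43.7% were called with all 6 libraries, and 7054 of 15671 without cKO replicate 2. The AP-1 subunit genes did not move together. Fos averaged 32.6 ± 2.93 CPM in WT against 58.9 ± 4.32 CPM in cKO (SD, n = 3 each; log2 fold change 0.85, edgeR adjusted p = 9.83e-07), Fosb was lower (-0.44, edgeR adjusted p = 0.00115), and Jun was higher by 0.15 (edgeR adjusted p = 0.0292) but not under DESeq2 (adjusted p = 0.0709) or without WT replicate 2, WT replicate 3 or cKO replicate 1. Fos rose while Gja1, whose promoter window holds the AP-1 letters, fell. A link between the 2 was not tested. The NF-kB genes Rela and Nfkb1 (0.22 and 0.17, edgeR adjusted p = 0.00326 and 0.00939; Nfkb1 0.137 and 0.0558 without WT replicate 3) and the repressor genes Zeb1 and Zeb2 (both 0.20, edgeR adjusted p = 0.00631 and 0.00178) were higher. The steroid receptor genes Esr1 and Pgr did not pass.

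Of 12 adherens junction genes, whose contacts accompany gap junctions, 6 were lower and 2 were higher (median log2 fold change -0.18). Across all genes tested, 43.7% were called in either direction and 21.8% were called lower. The mesenchymal cadherins Cdh2 and Cdh11 fell by 0.54 and 0.47 on the log2 scale (edgeR adjusted p = 0.00117 and 1.35e-05), while the epithelial cadherin Cdh1 rose as given above. The catenin genes Ctnnb1 and Jup fell by 0.24 each (edgeR adjusted p = 0.000386 and 0.00133), and Nectin1 and Nectin2 moved in opposite directions (-0.29 and 0.31, edgeR adjusted p = 0.00162 and 0.00489). Ctnna1 was called lower (-0.13, edgeR adjusted p = 0.0291), a call lost without WT replicate 2, WT replicate 3, cKO replicate 1 or cKO replicate 3 (adjusted p = 0.0536 to 0.138). Pannexins form channels to the outside of the cell, and of the 3 genes Panx1 alone exceeded 1 CPM. It had 15.2, 17.4 and 20.3 CPM in WT against 13.6, 13.95 and 13.96 CPM in cKO (log2 fold change -0.35, edgeR adjusted p = 0.0131), and the call was lost without WT replicate 3 (-0.243, edgeR adjusted p = 0.0747).

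Each member above 1 CPM in all 6 libraries was compared with 10608 other protein-coding genes with a mean of at least 5 CPM. Those whose log2 CPM followed it most closely over the libraries were picked by Pearson's r, as a description in which the group difference is shared. Closest to Gja1 were Nfya, Atp13a3 and Ecpas (r = 0.996, 0.995 and 0.993), and closest to Gja4 were H2afx, Cul9 and Slpi (r = 0.995, 0.993 and 0.992). Gjb2 was followed by Pigt, Slc25a22 and Gimap9 (r of at least 0.999 each, rounded), and Gjb5 by Nup155, Nup205 and Ubn2 (r = 0.998, 0.997 and 0.997). For Gjc1, which did not differ detectably between the groups, the closest were Pdxk, Zbtb37 and Prkd2 (r = 0.98, 0.96 and 0.959). No connexin gene was among the closest 3 of any of these members. Gja5, not above 1 CPM in every library, was not ranked, and its mean kept it out of the genes compared.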

How the data were processed

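The authors deposited 1 table of read counts per gene for 6 libraries (featureCounts 1.6.4 per the file headers, reverse-stranded, GENCODE M18, mouse GRCm38; the submitters' processing notes also name cutadapt, HISAT2 and GRCm38.p5). Libraries were made from total RNA by random and poly(T) priming with strand selection, and reads that map to several places or genes are left out by the counter's default, which can lower genes with copies. Symbols for 99.88% of genes came from GENCODE M21, and promoters for 5 of 6 members from RefSeq. From the counts, edgeR 4.0.16 (R 4.3.3; TMM scaling, filterByExpr by group, quasi-likelihood test, Benjamini-Hochberg, threshold 0.05) gave log2 fold changes over 15376 genes; CPM uses the TMM-adjusted totals and TPM the exon length in the table. DESeq2 1.42.0 and limma 3.58.1 were among the alternatives. The test was checked on simulated counts in which few genes changed. That check does not cover changes as common as those here or counts as low as those of Gja5. Replicate libraries differed by more than sampling noise (chi-square per gene 1.31 to 1.60), so each was kept as a library of its own. Separate preparations from 1 animal or pool could differ in this way too, so independent animals are not shown by it. The common biological coefficient of variation of the edgeR fit, the spread between replicates beyond counting noise, was 5.32%. Same-numbered WT and cKO libraries deviated with correlations of -0.0243, 0.0353 and 0.0928, so the numbers were not taken as pairs.

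Besides the members, the text names, of each list, genes under the threshold (at most 8 by size of change), pannexins above 1 CPM in any library, genes within 100 kb of a member above 1 CPM, the 3 genes most alike for members above 1 CPM in all libraries, and Pbrm1 and Pgr. Uncalled genes such as Tjp1, Pecam1, Cdh5 and Esr1 and the sharers Zfp697 and Gpr89 were added after their values were seen. Words shared between transcripts were 50 bases long. Some genes that the rule selects are not reported here. The members and lists were chosen with earlier results of these data known.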

Additional observations from a re-analysis of the deposited data

How the results depend on the processing

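Gja1, Gjb2 and Gjb5 kept their direction and their call under all 14 alternatives run for each (DESeq2, limma-voom, 3 other scalings, 2 other filters, the replicate block and each of 6 libraries left out), and Gjc1 stayed uncalled under all of them. Leaving out 1 library at a time, the members called numbered 3 to 5, Gja4 ranged from -0.292 to -0.197 and Gja5 from 0.785 to 1.464 on the log2 scale; the low count came without WT replicate 1, when Gja4 and Gja5 were not called. At an adjusted p of 0.01, 3 members, 1 of the 2 other connexin genes tested and 4665 of the 15376 genes tested were called. At an adjusted p of 0.05 with a fold over 2, 2 members, 1 other connexin gene and 998 of all genes were called. DESeq2 called 1 other connexin gene. The Gja1 share of connexin TPM reversed to -0.943 percentage points over the 6 members alone (exact permutation p = 0.7, against 0.2 over all connexin genes). With the replicate block, 5 members and 6908 of all genes were called (6723 without it), and no member's call changed; the numbers do not pair the libraries. Of 1092 values for 78 other genes, 48 lost a call, 1 gained one and none changed direction. Depth limits Gja5, with 10 counts in WT replicate 1.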
